A study of Mus musculus with 3 samples.

Results

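The genes examined encode the CD3 chains of the T cell receptor and the first proteins that act on them. They are *Cd3d*, *Cd3e*, *Cd3g* and *Cd247*, which encode CD3δ, CD3ε, CD3γ and the CD3ζ chain, the kinases *Lck*, *Fyn* and *Zap70*, and the adaptors *Lat* and *Lcp2* (SLP-76). These 9 genes were chosen by name for their place in the pathway, out of 55536 genes measured, and the rule used no measured value. Polyadenylated RNA had been sequenced from naive thymus-derived CD4-positive, αβ T cells, a primary cell population of 1 adult male mouse of 5 months. The strain was B6.SJL-Ptprca Pepcb/BoyJ, a C57BL/6 line that carries the Ptprca allele of the CD45 gene and the Pepcb allele. RNA was sheared with a Covaris sonicator and the stated size range was 100 to 300. All 3 libraries were technical replicates of this single biological sample, named library 1, library 2 and library 3 here by their labelled technical replicate number. There was 1 group, with no treatment in the labels, so every SD below (n = 3) and every p-value measures only the spread between these technical libraries and nothing about animals or conditions. In such bulk RNA, fewer cells of a type and less RNA per cell cannot be told apart.

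The T cell receptor itself has no catalytic activity. Its αβ heterodimer binds peptide and MHC, and the CD3δε, CD3γε and ζζ dimers carry the signal inward through immunoreceptor tyrosine-based activation motifs (ITAMs), each made of a pair of tyrosines spaced along the cytoplasmic tail. Lck, a Src family kinase held at the co-receptor CD4 or CD8, phosphorylates both tyrosines, with Fyn as a related kinase. The doubly phosphorylated ITAM recruits ZAP-70, which then phosphorylates the membrane adaptor LAT and the cytosolic adaptor SLP-76, and these assemble the complex that activates phospholipase Cγ1.

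The motif that carries this chemistry was read from the coding sequence of the most abundant coding transcript of each CD3 chain (GENCODE M21 transcripts, GRCm38). A match was a tyrosine, any pair of residues and a leucine or isoleucine, then 6 to 8 residues, then the same block again. *Cd3d-201*, *Cd3e-201* and *Cd3g-201* held 1 match each and the main *Cd247* transcript held 3. None was found in the most abundant coding transcripts of *Lck*, *Fyn*, *Zap70*, *Lat* and *Lcp2*. The 6 stretches are shown because they are what *Lck* and *Fyn* products act on. They are written 5′ to 3′ on the coding strand, with the codons of the motif's own tyrosines and leucines or isoleucines in capitals. Each spans an exon junction in the genome.
Cd3d ITAM: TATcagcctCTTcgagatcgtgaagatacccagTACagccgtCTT
Cd3e ITAM: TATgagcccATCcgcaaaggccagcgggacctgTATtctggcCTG
Cd3g ITAM: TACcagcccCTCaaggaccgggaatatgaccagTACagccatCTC
Cd247 ITAM 1: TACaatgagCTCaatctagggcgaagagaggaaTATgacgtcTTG
Cd247 ITAM 2: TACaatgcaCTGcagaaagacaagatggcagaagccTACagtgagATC
Cd247 ITAM 3: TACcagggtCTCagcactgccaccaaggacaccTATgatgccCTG

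Library depth was 14800852, 18170786 and 17448768 expected counts over genes in libraries 1, 2 and 3. Library 2 stood apart in composition: ribosomal protein genes took 10.9% of its TPM, a length-corrected level scaled to the same total in each library, against 7.72% and 7.33% in libraries 1 and 3, and ribosomal RNA genes took 1.47%, against 0.575% and 0.635%. The labelled cell type was checked against marker lists. All 6 naive CD4 T cell markers were detected, with a detected gene defined as at least 1 TPM in every library, and their summed level was 6892, 6409 and 6941 TPM. Summed levels ran from 16.9 to 17.4 TPM for the CD8 T cell list (1 of 2 genes detected). Almost all of that was *Cd8b1*, with a mean of 17.0 TPM, and *Cd8a* had a mean of 0.14 TPM. The sums ran from 2.17 to 3.04 TPM for B cells (1 of 6) and from 0.28 to 1.21 TPM for NK cells (0 of 4). They ran from 2.82 to 4.22 TPM for myeloid cells (2 of 6) and from 2.42 to 3.38 TPM for double-positive thymocytes (1 of 4).

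All 9 genes were detected and all were among the more abundant protein-coding messages. Genes can be compared on TPM, since it is given per length. Mean levels ran from 134 TPM for *Zap70* to 1182 TPM for *Lck*, with a median of 429 TPM over the 9 genes, and their percentile ranks among 22028 protein-coding genes ran from 94.0 to 99.6. Summed over the 9, they made up 0.489%, 0.428% and 0.497% of all TPM in libraries 1, 2 and 3, lowest in library 2.

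**Figure D1:**
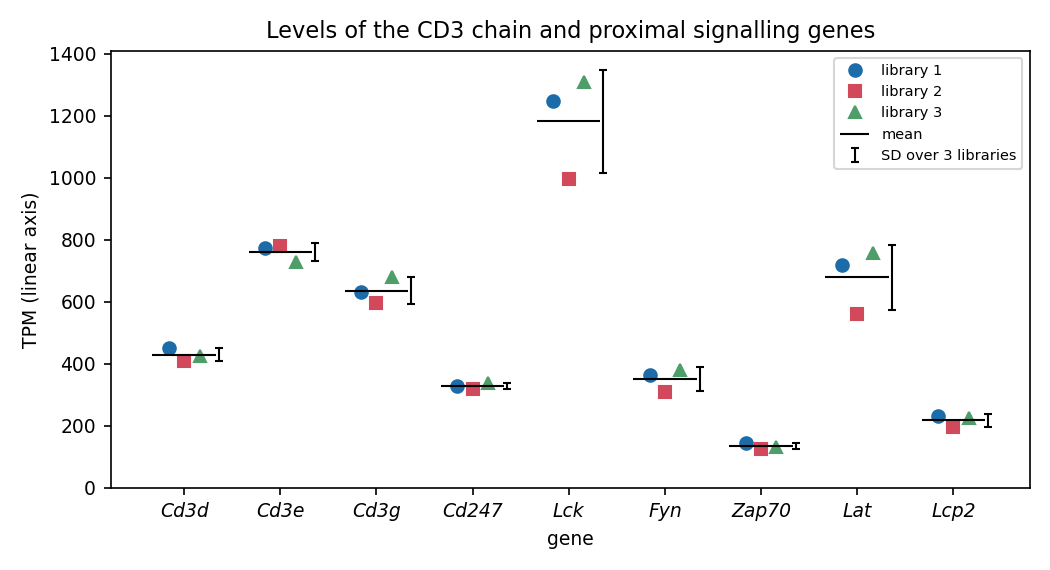
Level of each gene in TPM (linear axis) in the 3 technical libraries, as points, with the mean as a horizontal line and the SD over libraries as a bar. *Lck* had the highest mean, 1182 TPM, and *Zap70* the lowest, 134 TPM, and library 2 lies lowest for *Lck* and *Lat*.

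Among the CD3 chains, *Cd3e* was the most abundant message. CD3ε pairs with both CD3δ and CD3γ, so it enters the receptor in more than 1 dimer. Coordinates here and below are on GRCm38 with GENCODE M21. *Cd3e* (ENSMUSG00000032093.7, chr9:44998740-45009627, minus strand) had 774.7, 779.5 and 727.4 TPM in libraries 1, 2 and 3, or 760.5 ± 28.8 TPM (SD, n = 3). *Cd3g* (ENSMUSG00000002033.14, chr9:44969572-44980431, minus strand), the partner of CD3ε in the γε dimer, had 631.4, 595.5 and 680.5 TPM, or 635.8 ± 42.7 TPM. The *Cd3e* and *Cd3g* ranges did not overlap. *Cd3d* (ENSMUSG00000032094.8, chr9:44981786-44987339, plus strand), the partner in the δε dimer, had 452.0, 410.2 and 426.1 TPM, or 429 ± 21.1 TPM. *Cd247* (ENSMUSG00000005763.15, chr1:165788681-165877277, plus strand), whose ζ chain forms a disulphide-linked dimer and carries most of the receptor's ITAMs, had 329.0, 317.1 and 336.7 TPM, or 327.6 ± 9.85 TPM. Its highest library lay below the lowest *Cd3d* library.

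Expressed as shares of the summed 4-chain level, which was 2187, 2102 and 2171 TPM, *Cd3e* took 35.3 ± 1.79%, *Cd3g* 29.5 ± 1.61%, *Cd3d* 19.9 ± 0.636% and *Cd247* 15.2 ± 0.259% (SD, n = 3). This order of the chains on gene TPM was the same in every library. On the log2(TPM + 0.1) scale *Cd3e* exceeded *Cd3d* by 0.78, 0.93 and 0.77, *Cd3g* by 0.29, 0.39 and 0.10, and *Cd247* by 1.24, 1.30 and 1.11 in libraries 1, 2 and 3. The excess over *Cd3g* was the smallest of these and had the widest spread, 0.26 ± 0.15.

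*Cd3g*, *Cd3d* and *Cd3e* lie side by side on chromosome 9 in a span of bases 44969572 to 45009627. *Cd3g* and *Cd3d* are transcribed away from each other from starts 1355 bases apart, and *Cd3e* lies 11401 bases beyond the end of *Cd3d* on the opposite strand. Neighbours that start so close together differed in level, *Cd3g* exceeding *Cd3d* 1.48-fold with ranges that did not overlap. *Cd3e* shares 135 exonic bases with the antisense gene *Gm48719*, which was listed at a mean of 15.5 TPM. Whether counting used strand is not given in the sources used here, so reads in that overlap cannot be assigned with certainty.

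*Lck* was the most abundant of the 9 genes. It encodes the Src family kinase that starts ITAM phosphorylation. *Lck* (ENSMUSG00000000409.14, chr4:129548344-129573641, minus strand) had 1246, 994 and 1307 TPM, or 1182 ± 166 TPM, with library 2 lowest, and exceeded *Cd3e*, the next in order, 1.55-fold with no overlap of ranges. *Fyn* (ENSMUSG00000019843.14, chr10:39368855-39565381, plus strand) had 365.2, 308.1 and 380.4 TPM, or 351 ± 38.1 TPM, again lowest in library 2. The *Lck* to *Fyn* ratio was 3.41, 3.23 and 3.44 in libraries 1, 2 and 3, a log2 difference of 1.75 ± 0.05, and both genes were lowest in library 2.

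*Zap70*, which encodes the next kinase to act, had the lowest level of the 9 genes. Its product binds doubly phosphorylated ITAMs through tandem SH2 domains. *Zap70* (ENSMUSG00000026117.10, chr1:36761798-36782818, plus strand) had 144.2, 124.5 and 132.2 TPM, or 134 ± 9.92 TPM. No library of *Zap70* reached the lowest library of any other member, and *Lcp2*, the next above it, was 1.63-fold higher.

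The adaptors differed from each other in level. *Lat* (ENSMUSG00000030742.7, chr7:126363824-126369570, minus strand), the membrane scaffold whose tyrosines ZAP-70 phosphorylates, had 717.7, 559.3 and 758.0 TPM, or 678 ± 105 TPM, lowest in library 2. *Lcp2* (ENSMUSG00000002699.13, chr11:34046920-34092295, plus strand), which is joined to LAT through the linker Gads, had 232.1, 194.8 and 225.6 TPM, or 217.5 ± 20.0 TPM. All 3 *Lat* values lay above all *Lcp2* values. *Lat* shares 75 exonic bases with the microRNA gene *Mir7058*, which was listed at 18.91, 10.21 and 42.55 expected counts.

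Ordered by mean gene TPM, the genes ran *Lck*, *Cd3e*, *Lat*, *Cd3g*, *Cd3d*, *Fyn*, *Cd247*, *Lcp2* and *Zap70*. Of the 8 neighbouring pairs in that order, 3 had overlapping ranges, namely *Cd3e* and *Lat* (1.12-fold), *Lat* and *Cd3g* (1.07-fold) and *Fyn* and *Cd247* (1.07-fold), and in each of these the gene of higher mean was higher in 2 of 3 libraries. The other 5 neighbouring pairs did not overlap. Outside the pathway, the protein-coding genes whose levels lay nearest to *Cd3e*, by the largest absolute log2(TPM + 0.1) difference over the 3 libraries, were *Rabac1* (0.06), *Emb* (0.15) and *Sqstm1* (0.15). Nearest to *Lck* were *Il2rg* (0.04), *Ifngr1* (0.07) and *Msn* (0.11), and *Il2rg* was likewise lowest in library 2, with 1208, 994.7 and 1312 TPM.

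How far each gene varied between the technical libraries was examined on expected counts, which are read estimates before length correction. Counts were divided by library sizes scaled by the trimmed mean of M-values (TMM), and homogeneity over the 3 libraries was tested per gene by chi-square with Benjamini-Hochberg adjustment over the 13090 genes that averaged 10 counts or more. An adjusted p under 0.05 was reached by 40.0% of all genes tested and by 7 of the 9 genes examined here, and by 83.1% of the 1530 genes with at least the counts of the lowest of the 9. The test is sensitive at these counts, so the size of each difference is the more readable quantity. The technical coefficient of variation (CV) had a median of 6.21% over the 9 genes, 9.51% over all genes tested and 6.46% over the genes of at least equal counts.

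On TMM-scaled counts *Cd3d* had the lowest CV of the 9. Its TMM-scaled counts were 4709, 4690 and 4709 (CV 0.241%, adjusted p = 0.98 by chi-square). *Cd247* followed, with 4920, 5139 and 5024 TMM-scaled counts (CV 2.18%, adjusted p = 0.183). On TPM the CV was 4.91% for *Cd3d* and 3.01% for *Cd247*, so the order turned with the scale. Neither gene passed the threshold, which does not show that their levels were equal.

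On the same scale *Lck* had the highest CV. Its TMM-scaled counts were 20808, 17533 and 22374 (CV 12.2%, adjusted p = 8.05e-137 by chi-square), a 1.28-fold range with library 2 lowest. *Lat* had 8119, 6926 and 8562 (CV 10.7%, adjusted p = 8.95e-41), a 1.24-fold range. On TPM the CV was 14.0% for *Lck* and 15.5% for *Lat*, again the widest of the 9, in the other order. *Lcp2* with 5869, 5237 and 6047 TMM-scaled counts and *Fyn* with 9134, 8409 and 9510 had the same low library (CV 7.45% and 6.21%, adjusted p = 4.43e-14 and 1.67e-15). These 4 of 9 genes passed the threshold with library 2 lowest, a pattern that 17.4% of all genes tested had, and 44.4% of the 1530 genes with at least the counts of the lowest of the 9. The share among the 9 is thus no higher than among genes of such counts. Library 2 is also the library with the higher ribosomal protein and ribosomal RNA shares given above, and whether that difference has a part in these results was not tested.

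*Cd3e* ran the other way, with 10935, 11979 and 10414 TMM-scaled counts, so library 2 was highest (CV 7.17%, adjusted p = 1.52e-25 by chi-square). *Cd3g* had 6160, 6256 and 6647 (CV 4.06%, adjusted p = 0.000134) and was highest in library 3. *Zap70* had 2674, 2488 and 2472 (CV 4.41%, adjusted p = 0.0267) and was highest in library 1. Without library 2, *Lcp2* no longer passed, and the share of all genes called fell to 14.7%. Without library 1 *Zap70* no longer passed, and without library 3 *Cd3g* no longer passed.

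**Figure D2:**
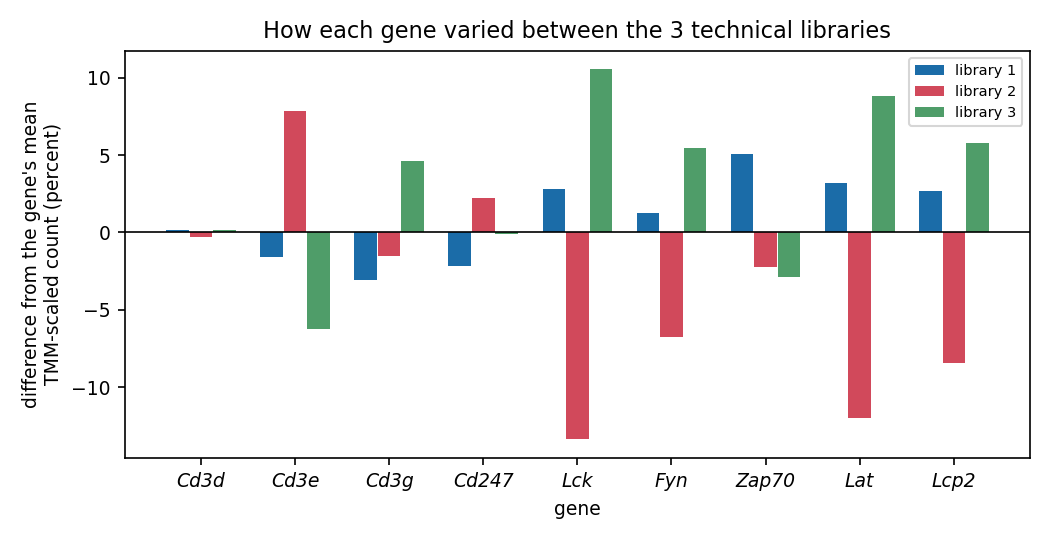
Difference of each gene's TMM-scaled count from its mean over the 3 technical libraries, in percent, with 1 bar per library. *Lck* (-13.37%), *Lat* (-11.98%), *Lcp2* (-8.41%) and *Fyn* (-6.75%) dip in library 2, *Cd3e* is higher there (7.83%), and the *Cd3d* bars are hardly visible.

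Transcript shares were taken from the isoform percent, which divides the TPM of a gene among its annotated transcripts. *Lck* can start at a distal or a proximal promoter. In mice the proximal promoter is known for its activity in immature thymocytes, and the distal one for activity that continues in mature T cells. The annotated first exons are at chr4:129573515-129573641 (distal, 127 bases) and chr4:129558288-129558372 (proximal, 85 bases), and the starts lie 15269 bases apart. The 250 bases before each start are shown because reads were assigned to both promoters (RefSeq, GRCm38.p6, minus strand, 5′ to 3′). Capitals mark GGAA, or TTCC where it lies on the other strand, the core that ETS family factors bind.
Lck distal promoter, chr4:129573642-129573891: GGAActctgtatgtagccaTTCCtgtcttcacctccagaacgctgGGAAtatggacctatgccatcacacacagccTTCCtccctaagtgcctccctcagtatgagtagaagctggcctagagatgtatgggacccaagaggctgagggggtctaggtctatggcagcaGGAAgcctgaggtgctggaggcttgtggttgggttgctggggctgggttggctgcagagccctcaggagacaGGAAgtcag
Lck proximal promoter, chr4:129558373-129558622: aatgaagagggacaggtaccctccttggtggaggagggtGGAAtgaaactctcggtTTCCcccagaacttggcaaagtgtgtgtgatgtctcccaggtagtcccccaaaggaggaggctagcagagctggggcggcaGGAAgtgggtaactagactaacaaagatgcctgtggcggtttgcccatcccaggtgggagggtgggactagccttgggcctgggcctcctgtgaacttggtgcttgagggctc

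GGAA was found 6 times before the distal start and 3 times before the proximal start, counting both strands, and 93.4% of 32851 RefSeq promoters of the same length hold it. CANNTG, the E-box, had 0 matches in the distal window and 1 in the proximal window, against 66.2% of promoters with a match. TGTGGT, the core bound by RUNX factors, had 1 match in the distal window and 0 in the proximal window, against 14.0% of promoters. TATAAA was in neither window, and 12.4% of promoters hold it. None of these matches overlapped a match of another of the 4 motifs. Such matches describe letters, not bound sites.

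Transcripts from the distal start, all of them *Lck-202*, held 51.26%, 40.61% and 47.01% of *Lck* TPM in libraries 1, 2 and 3, or 46.3 ± 5.36%. Those from the proximal start, mostly *Lck-208*, which encodes 520 codons against 509 in *Lck-202*, held 28.91%, 36.8% and 35.24%, or 33.6 ± 4.18%. *Lck-201*, also of this class, held 5.20 ± 0.85%. The distal share exceeded the proximal share in every library, by the least in library 2. Deposited intervals cover single transcripts, so whether the classes differed there beyond the error of assignment was not tested. Transcripts that hold neither first exon, nearly all the retained-intron transcript *Lck-207* of 450 bases, made up the remaining 20.1 ± 2.43% of TPM. Their part of the *Lck* counts was smaller, as given below. Of the distal and proximal classes alone, the distal class was 57.9 ± 5.77%.

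In library 2 the distal class was low and the proximal class was not. *Lck-202* had 638.6, 403.7 and 614.3 TPM, lowest in library 2, and the authors' deposited intervals for it, 481 to 615, 316 to 401 and 486 to 575 TPM, did not overlap between library 2 and the other libraries. In each library the maximum-likelihood value lay above that interval. The proximal class had 360.2, 365.8 and 460.4 TPM, lowest in library 1. Only 124 windows of 50 bases are found in the distal class and in no other *Lck* transcript, and 250 in the proximal class. The division thus rests on a small part of each transcript. Within the proximal class, only 5 windows are unique to *Lck-208*, against 161 to *Lck-201*.

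*Fyn* carries a pair of mutually exclusive exons at the start of its kinase domain, known as the T cell and the brain form. They are shown whole because the choice between them is what distinguishes the FynT and FynB proteins (GENCODE M21, plus strand, 5′ to 3′). Aligned end to end, 89 of 165 columns were identical, or 53.9%.
Fyn T cell exon, chr10:39529919-39530074: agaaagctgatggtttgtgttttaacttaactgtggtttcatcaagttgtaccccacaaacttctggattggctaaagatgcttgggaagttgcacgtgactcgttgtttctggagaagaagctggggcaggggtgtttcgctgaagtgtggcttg
Fyn brain exon, chr10:39529437-39529601: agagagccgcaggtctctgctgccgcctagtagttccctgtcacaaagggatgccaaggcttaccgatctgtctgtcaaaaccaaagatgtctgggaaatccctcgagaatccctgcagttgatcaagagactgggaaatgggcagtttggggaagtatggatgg

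The T cell exon dominated. Transcripts with it held 87.12%, 84.93% and 81.85% of *Fyn* TPM, or 84.6 ± 2.65%, and the single transcript with the brain exon, *Fyn-202*, held 1.65%, 1.51% and 1.40%, or 1.52 ± 0.125%. The brain form rested on 180.31, 180.76 and 189.15 expected counts in libraries 1, 2 and 3. Of transcripts with either exon, 98.2 ± 0.0913% had the T cell form. *Fyn-206*, which has neither exon and encodes 482 codons against 534 in *Fyn-201*, held 8.36%, 10.32% and 11.98%. That share rests on 48 windows of 50 bases unique to *Fyn-206*. Within the T cell class, the level was divided among *Fyn-201* (33.6 ± 0.817%), *Fyn-204* (24.4 ± 1.75%), *Fyn-205* (18.4 ± 4.26%) and *Fyn-207* (8.29 ± 0.504%), and each has only 43 to 65 unique windows.

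*Cd247* ends in alternative last exons that give the ζ chain or the η chain. The ζ form ends in the exon at chr1:165861004-165862066 and the η form in that at chr1:165866655-165867436. Their coding parts are shown because the ζ exon completes the third ITAM, which begins in the exon before it (GENCODE M21, plus strand, 5′ to 3′, without the stop codon). Capitals mark the leucine, tyrosine and leucine codons of that ITAM in the ζ exon.
Cd247 ζ end, chr1:165861004-165861066: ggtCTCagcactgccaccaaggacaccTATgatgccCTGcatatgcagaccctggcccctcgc
Cd247 η end, chr1:165866655-165866843: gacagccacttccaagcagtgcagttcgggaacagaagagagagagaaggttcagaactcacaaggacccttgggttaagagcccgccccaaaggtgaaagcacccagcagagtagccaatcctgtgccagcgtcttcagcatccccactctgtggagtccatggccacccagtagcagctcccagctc

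Transcripts with the ζ exon held 93.62%, 93.74% and 93.45% of *Cd247* TPM, or 93.6 ± 0.146%, and those with the η exon 6.35%, 6.18% and 6.55%, or 6.36 ± 0.185%. The main ζ transcript encodes 164 codons with 3 ITAM matches, and the main η transcript encodes 206 codons with 2. The annotation limits the η value. All 782 bases of the η exon lie within exons of *Pou2f1*, which is transcribed from the opposite strand and had a mean of 31.0 TPM, whereas the ζ exon shares 0 bases with it. If counting did not use strand, reads of *Pou2f1* and of the η exon cannot be told apart.

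**Figure D3:**
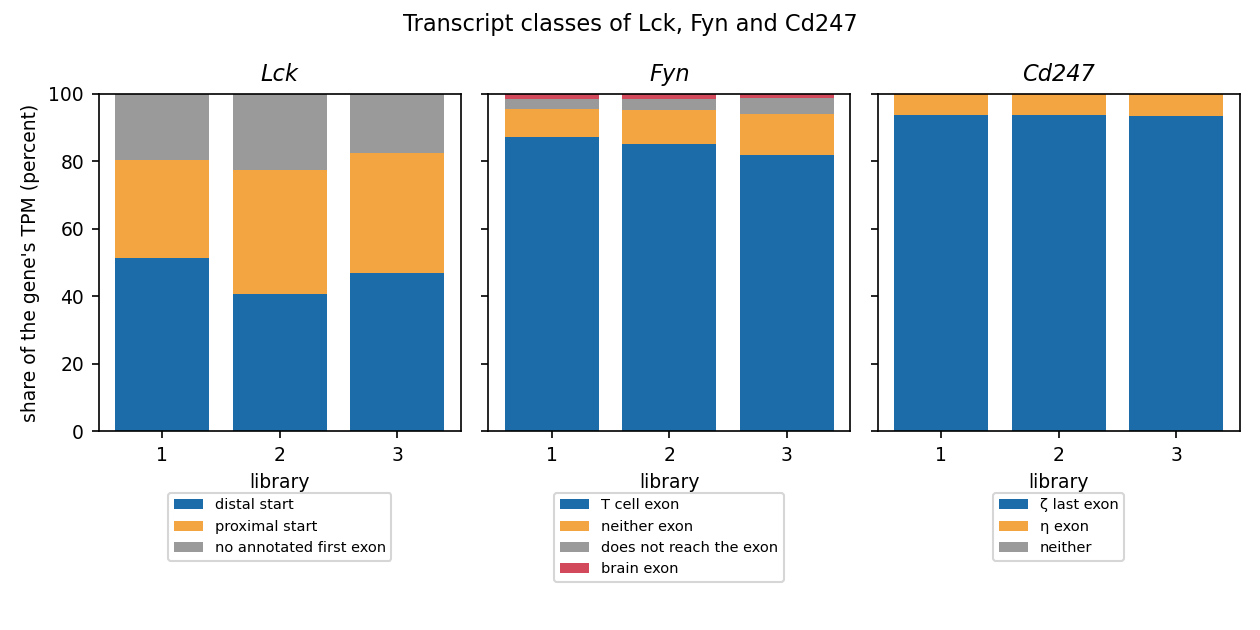
Share of each gene's TPM (percent) by transcript class in the 3 technical libraries, as stacked bars for *Lck* (first exon), *Fyn* (alternative internal exon) and *Cd247* (an exon with the start of the ζ or η last exon). The *Lck* distal share ranges from 40.61% to 51.26%, the *Fyn* T cell share from 81.85% to 87.12%, and the *Cd247* ζ share from 93.45% to 93.74%.

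For the other genes 1 full-length coding transcript led. *Cd3g-201* held 97.0 ± 0.425% of *Cd3g* TPM, *Cd3e-201* 89.4 ± 1.13%, *Lat-201* 85.8 ± 0.511%, the leading *Zap70* transcript 73.0 ± 1.16% and *Cd3d-201* 64.8 ± 2.32% (SD, n = 3). The remaining *Cd3d* TPM went to the short coding transcript *Cd3d-202* (286 bases, 21.3 ± 0.406%) and the short retained-intron transcript *Cd3d-203* (299 bases, 13.9 ± 1.92%), and by expected counts, which are not divided by length, *Cd3d-201* held 92.2%. Retained-intron transcripts took 27.0 ± 1.16% of *Zap70* TPM, the largest such share of the 9 genes, then 20.1 ± 2.43% of *Lck*, 13.9 ± 1.92% of *Cd3d*, 10.6 ± 1.13% of *Cd3e* and 7.48 ± 0.504% of *Lat*. The main ones were *Lck-207*, *Cd3d-203*, *Cd3e-202* (7.6 ± 0.39%) and a pair of *Zap70* transcripts of 1338 and 808 bases (20.1 ± 1.58% and 6.88 ± 0.725%). TPM weights short transcripts up, so this order changes on expected counts. *Lck-207*, of 450 bases, had 819.78, 979.43 and 912.96 of the 18492, 18626 and 23470 counts of *Lck*. *Cd3e-202*, of 2550 bases, had 1331.01, 1569.03 and 1406.85 of the 9717.53, 12725.6 and 10923.7 counts of *Cd3e*, a larger part than *Lck-207* had of *Lck*. *Lcp2* divided between a transcript of 533 codons (50.09%, 46.51% and 55.32%), one of 523 codons (32.36%, 35.65% and 31.81%), and a noncoding transcript of 722 bases (17.55%, 17.84% and 11.52%). The transcript of 533 codons was the most abundant in every library.

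Homogeneity of transcript composition over the libraries was tested by chi-square on transcript counts, for genes with at least 2 transcripts of at least 5% and at least 50 counts in every library. An adjusted p under 0.05 was reached by 77.1% of 7725 genes. Estimates of transcript counts carry more error than counting, which the test does not model. Of the 6 genes examined here that could be tested, 4 passed. *Lck* had the largest shift, 10.6 percentage points for *Lck-202* (adjusted p = 6.98e-131 by chi-square), then *Lcp2* with 8.81 points (adjusted p = 2.61e-16) and *Fyn* with 8.41 points in *Fyn-205* (adjusted p = 5.11e-42). The deposited intervals for *Fyn-205*, 13.3 to 91.1, 18.3 to 81.5 and 14.9 to 69.2 TPM, overlapped between all libraries. Those for the *Lcp2* transcript of 533 codons, 92.6 to 104, 75.1 to 84 and 103 to 114 TPM, set library 2 apart. *Cd3e* passed with a shift of 1.98 points (adjusted p = 0.0105), and without library 1, or without library 2, it no longer passed. *Cd3d* (adjusted p = 0.0671) and *Zap70* (adjusted p = 0.172) did not pass, with shifts of 4.36 and 2.89 points, although without library 2 *Cd3d* passed. All of these shifts were below the median over all genes tested, 11.6 points. *Cd3g*, *Cd247* and *Lat* have 1 transcript of at least 5% and were not tested.

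Relatives that other leukocytes use in the same positions were at or near 0 counts. *Syk*, the ZAP-70 relative of B cells, had 0.04, 0.05 and 0.06 TPM from 2 counts in each library. Pooled over libraries and corrected for length, *Zap70* exceeded *Syk* 2749-fold (exact Clopper-Pearson 95% interval 1262 to 7493, which covers counting error only), with 7612 against 6 counts. *Fcer1g*, the Fc receptor γ chain that can stand in for ζ, had 0, 1 and 1 counts, and *Cd247* exceeded it 2910-fold (805.4 to 24030). *Lat2*, the LAT relative of B and myeloid cells, had 0.56, 0.57 and 0.98 TPM, and *Lat* exceeded it 887.5-fold (495.9 to 1778). *Blnk*, the SLP-76 counterpart of B cells, had 2, 0 and 1 counts, and *Lcp2* exceeded it 6925-fold (2369 to 33582). *Clnk*, another SLP-76 relative, had 0, 1 and 0 counts. These 4 comparisons rest on 2 to 11 counts of the relative over all libraries.

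Among the Src family relatives of *Lck* and *Fyn*, 1 of 6 was detected, *Yes1*, with 2.10, 2.89 and 2.22 TPM. *Fgr* had 0.74, 0.48 and 0.91 TPM from 15, 9 and 27 counts. *Src*, *Lyn* and *Blk* had at most 6 counts in any library.

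**Figure D4:**
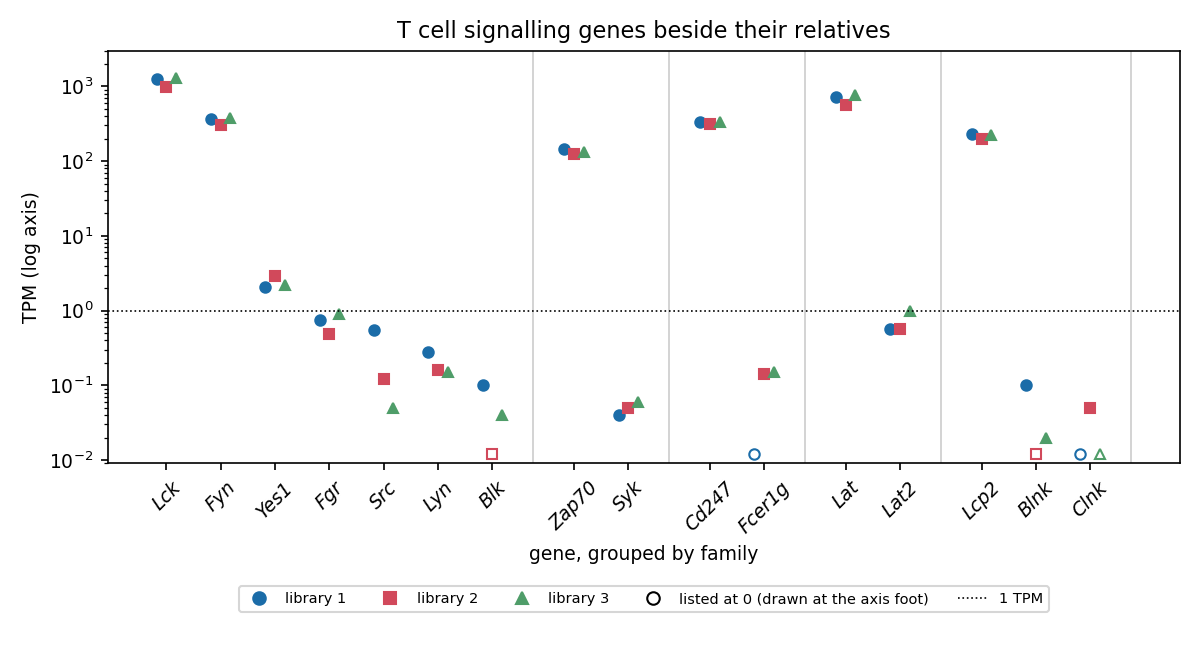
Levels in TPM on a log axis of *Lck*, *Fyn*, *Zap70*, *Cd247*, *Lat* and *Lcp2* and of their family relatives in the 3 technical libraries, with values listed at 0 drawn as open symbols at the foot of the axis. The 6 T cell genes lie at 124.5 TPM or more and all relatives but *Yes1* lie below 1 TPM (dotted line).

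The wider pathway was described by a list of 54 genes in 8 roles. Of these, 44 were detected, and of 45 that could be tested for differences between libraries 32 passed (17 of them lowest in library 2), beside the 40.0% and 17.4% of all genes and the 83.1% and 44.4% of the 1530 well-counted genes given above. No list gene was compared between conditions, since there were none. Median CV of the list was 4.84%.

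The receptor's antigen-binding chains stood above every CD3 chain. *Trac*, the α constant region, had 2475 ± 249 TPM, *Trbc2* 2415 ± 53.9 TPM and *Trbc1* 1217 ± 37.2 TPM (SD, n = 3). *Trbc1* and *Trbc2* are near-identical copies, so reads may have been divided between them. All 7 co-receptor and surface genes were detected, led by *Ptprc*, the CD45 phosphatase that activates Lck, with 1155, 1039 and 1206 TPM, and *Cd2*, an adhesion receptor, with 939.8, 750.8 and 968.5 TPM. *Cd4*, the co-receptor that holds Lck, had 438.5, 441.9 and 450.9 TPM, below *Lck* in every library.

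Regulators of the Src family kinases were all detected (5 of 5), and 3 of 5 passed the test between libraries. The share that passed was 40.0% of all genes tested and 83.1% of the 1530 well-counted genes. *Ptpn22*, a phosphatase that acts on Lck and ZAP-70, had 358 ± 14.2 TPM and *Ptpn6* (SHP-1) 196 ± 25.2 TPM, whereas *Csk*, the kinase that phosphorylates the inhibitory tyrosine of Lck, had 66.8 ± 5.19 TPM. *Pag1*, the membrane adaptor that recruits Csk, had 78.12, 102.6 and 76.65 TPM and was highest in library 2. All 3 Tec kinases were detected and 1 of 3 passed the test, and *Txk* had 232 ± 20.2 TPM.

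All 13 partners of LAT and SLP-76 were detected, and 9 of 13 passed the test between libraries. Beside this and the next count stand the 40.0% of all genes tested and the 83.1% of the 1530 well-counted genes. The highest were *Skap1* (630 ± 31.1 TPM) and *Fyb* (620 ± 24.5 TPM), whose products link SLP-76 to integrin activation. *Plcg1*, the phospholipase itself, had 181 ± 22.5 TPM and *Grap2*, which encodes the Gads linker, 188 ± 5.80 TPM, both close to the 217.5 ± 20.0 TPM of *Lcp2* and below *Lat*. All 12 inhibitory adaptors, lipid kinases and ligases were detected and 7 of 12 passed. They were led by *Dgka*, which removes diacylglycerol (872.5 ± 44.1 TPM), and *Cblb*, a ubiquitin ligase that restrains the pathway (518 ± 26.0 TPM).

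For each library the authors also deposited whole-number counts on the older GENCODE M4 annotation, and these ordered the genes differently. *Zap70* had 1508, 1609 and 1647 of these counts, above the 1117, 1174 and 1138 of *Cd3e*, although *Cd3e* had 9718 to 12726 expected counts and *Zap70* 2376 to 2643. As a share of expected counts, the older counts were 62.6 ± 1.51% for *Zap70*, 40.7 ± 1.99% for *Lcp2*, 29.5 ± 2.34% for *Fyn*, 22.7 ± 2.09% for *Cd3d* and 10.4 ± 1.14% for *Cd3e*, and the mean shares of the other 4 genes lay between those of *Cd3d* and *Cd3e*. *Lck* had the most counts in both tables, with 3159, 3143 and 3205 on M4. On the older counts 3 of the 9 genes, *Lck*, *Fyn* and *Lat*, passed the test between libraries, beside 18.9% of all genes in that table. The relative TMM library sizes there were 0.920, 1.036 and 1.044. Scaled by them, library 1 was highest for all 3 genes, whereas library 3 was highest on the M21 counts. Library 2 was lowest on both. Before scaling, the M4 counts were highest in library 3 for all 3 genes, with 2582, 2643 and 2706 for *Fyn* and 1617, 1628 and 1647 for *Lat*. Library 2 was then lowest only for *Lck*. The order of libraries on M4 thus came with the scaling and is not a separate observation of the M21 pattern. How those counts were made is not given in the sources used here, and the cause of the difference was not tested.

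**Figure D5:**
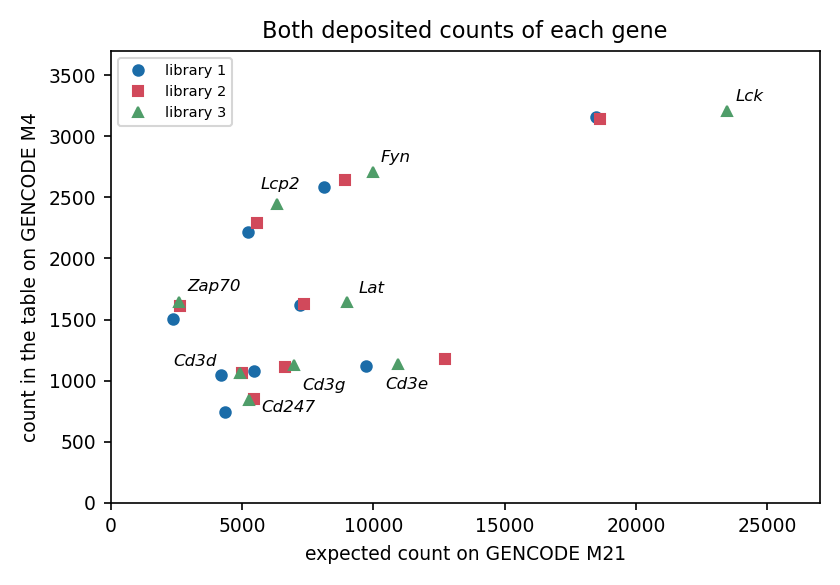
Whole-number count on the GENCODE M4 annotation (vertical axis) against expected count on GENCODE M21 (horizontal axis) for each gene in the 3 technical libraries, both linear axes. *Zap70* lies above *Cd3e* on the vertical axis (1508 to 1647 against 1117 to 1174) and far to its left on the horizontal axis.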

How the data were processed

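The 3 technical libraries of polyadenylated RNA from 1 mouse formed 1 group. The assembly was mm10, per the labels and the text deposited with the files, which name GENCODE M21 for the main tables and GENCODE M4 for an older one. Not given in the sources used here were the aligner, the quantifier and the use of strand.

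Expected counts (estimated reads per gene or transcript) and TPM were deposited by the authors as maximum-likelihood and posterior mean values, and the intervals quoted for transcripts are those the authors deposited. Isoform percent divides the TPM of a gene among its transcripts in percent, and was also deposited by the authors. Whole-number counts on M4 were deposited by the authors for 22457 genes. Entries that name no gene held 0.247%, 0.200% and 0.325% of expected counts and were left out. Gene symbols came from GENCODE M21.

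Expected counts were rounded before any test. TMM factors came from edgeR 4.0.16 in R 4.3.3, using genes that averaged 10 counts or more. With 1 group no quasi-likelihood test could be fitted, so homogeneity was tested by chi-square with Benjamini-Hochberg adjustment over all genes (scipy 1.17.1), at an adjusted p under 0.05. Both tests were also run on simulated counts that held counting noise alone. Such a run cannot show how they behave with the added error of real libraries. Ratios used a pseudocount of 0.1 TPM, and pooled ratios exact Clopper-Pearson 95% intervals. A count of 0 allows up to 3 counts. Reads carry no molecular identifiers, so intervals cover counting error only. Transcripts were classed by annotated exons, and uniqueness by windows of 50 bases. All 9 genes had an entry in the RefSeq promoter table.

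The text names all 9 genes, their transcripts with at least 5% of TPM (by name, length or class), relatives used in ratios, genes of the pathway list by role with values for the 2 highest of each role, and the 3 genes nearest in level to *Cd3e* and *Lck*. *Cd4*, *Trbc1*, *Csk*, *Pag1*, *Plcg1* and *Grap2* were given values for their roles, after their values were seen. The same holds for the markers *Cd8a* and *Cd8b1*. Some genes that the rule names are left out of the text but count in the list totals. The 9 genes, the lists and the tests were chosen with earlier results of these data known. Alternatives covered DESeq2 size factors (1.42.0), library totals, count filters, thresholds, posterior means, pseudocounts, the M4 counts and leaving out each library.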

Additional observations from a re-analysis of the deposited data

How the results depend on the processing

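Of 185 alternatives, 140 left a value within the limits set for it, 45 moved it and 0 reversed a direction. A reversal could be recorded only for the log2 ratios, so the 0 says nothing about counts of genes or transcript shares. The order of transcript classes, and of gene pairs without a ratio, was not checked this way. For ratios and transcript shares the limit was the SD over the 3 libraries. A mean that leaves out 1 library always lies within that limit, so those alternatives could not move a value. Rescaling TPM over protein-coding genes cancels in a ratio except for the pseudocount. A large part of the 140 was thus fixed in advance and does not measure stability. On the M4 counts 1895 genes, 3 of the 9 genes and 14 of the pathway list passed the test between libraries, against 5238, 7 and 32 in the main analysis. With 1 library left out, 1903 to 4875 genes, 6 of the 9 genes each time and 19 to 28 of the pathway list passed, fewest without library 2. With no count filter *Zap70* no longer passed, and with a mean of at least 50 counts *Cd247* passed too.

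With no length correction, the log2 ratio was 1.24 for *Cd3e* to *Cd3d*, 0.80 for *Cd3e* to *Cd3g* and 1.16 for *Lck* to *Fyn*. On the M4 counts the same ratios were 0.11, 0.047 and 0.26, and *Cd3e* to *Cd247* was 0.50. Ratios to relatives rest on few counts and followed the pseudocount. *Zap70* to *Syk* was 8.65 with posterior means, 10.04 with TPM rescaled over protein-coding genes, 9.99 with no length correction, 10.60 on M4, 7.00 with a pseudocount of 1 and 11.13 with 0.01. In that order of settings, leaving out the rescaled TPM, *Cd247* to *Fcer1g* was 8.57, 12.27, 9.63, 8.23 and 12.36, and *Lcp2* to *Blnk* was 9.62, 12.15, 11.62, 7.71 and 12.72. *Lat* to *Lat2* was 8.18 with posterior means, 10.99 with no length correction, 9.04 on M4 and 8.64 with a pseudocount of 1.

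By expected counts the distal share of *Lck* was 55.3%, the T cell exon share of *Fyn* 90.0% and the ζ share of *Cd247* 94.9%, and the ζ share was 93.4% with posterior means. The causes were not tested. No paired analysis was possible because there was 1 group.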
